A study of Homo sapiens with 14 samples.

Results

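The genes of respiratory chain complexes I to IV were taken by their symbols. The set held every gene whose annotated symbol begins with NDUF, UQCR or COX4 to COX8, together with SDHA, SDHB, SDHC, SDHD, CYC1 and CYCS, and pseudogenes were left out. Of 84 such genes in the RefSeq gene table, 72 were measured by a probe set that names that gene alone, among 19775 genes measured in this way. Each gene was read from its brightest probe set of that kind. Among the others, SDHB, UQCRFS1, UQCRB-AS1 and UQCRFS1-DT had no probe set named here. NDUFC2, NDUFC2-KCTD14, NDUFS5, NDUFS8, UQCRH, UQCRHL and NDUFA6-DT lay only on probe sets that name several genes. The 72 measured genes were 8 complex I assembly factors of the NDUFAF series, 5 core and 28 accessory subunits of complex I, 3 subunits of complex II, 7 of complex III, 11 of complex IV, 6 tissue isoforms of complex IV, cytochrome c and 3 noncoding RNA genes named after NDUF neighbours. The subunits that mitochondrial DNA encodes do not carry these symbols and were outside the set. The gene once called NDUFA4 is now annotated as COXFA4 and was not a member.

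The data came from 14 HG-U133 Plus 2.0 arrays. The cells were 7 established T-ALL lines, each grown in serum-containing medium: ALL-SIL, CCRF-CEM, Jurkat, HPB-ALL, TALL-1, Molt-4 and P12-ICHIKAWA. In the AS605240 group each line received this PI3K inhibitor at its own IC50 concentration for 6 h, and in the Control group the same lines received vehicle for the same time. The comparison asked which respiratory chain transcripts change when PI3K is inhibited. There was 1 array per line and treatment, so the p-values measure the spread of the change between lines with array noise included, and no line had a replicate of its own. Values are log2 of the signal intensity plus 16, and a change is AS605240 minus Control within a line. In bulk RNA of a culture, fewer cells of a kind and less RNA per cell cannot be told apart.

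The lines carried T-cell transcripts. Of 11 T-cell marker genes measured, 8 had a signal over 50 on every array, and their summed signal ran from 7592 to 17351 over the Control arrays and from 6998 to 16429 over the AS605240 arrays. CD3G, a chain of the T-cell receptor complex, was lower with AS605240 (log2 change -0.26, adjusted p = 0.00682 by limma with Benjamini-Hochberg adjustment), and no other T-cell marker was called. The 6 B-cell markers measured summed to between 60.6 and 512 on any array, and none was over 50 on every array. CD79B was the one B-cell marker called (-0.58, adjusted p = 0.00138). The 7 myeloid markers summed to 174 to 299 and the 8 epithelial and fibroblast markers to 301 to 839, with no call in either list. The part of these markers in the results was not tested. In Control, TALL-1 and P12-ICHIKAWA were nearly alike (r = 0.994 across bright genes, against 0.953 for Jurkat and Molt-4, the next closest pair), so results are also given with these lines averaged and counted as 1.

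The respiratory chain passes electrons from NADH through complex I, or from succinate through complex II, to coenzyme Q, then through complex III and cytochrome c to complex IV, which hands them to oxygen. Complexes I, III and IV pump protons as they do so, and ATP synthase uses the gradient. Complex I is built from modules around core subunits that carry flavin and iron-sulfur clusters, and the NDUFAF proteins help to build it without staying in the finished enzyme. Leukemic T cells, like other dividing cells, draw on this chain both for ATP and for regenerating NAD.

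All of these genes are encoded in the nucleus, and promoters of such genes are known for sites of NRF1 and of the ETS factor GABP. RefSeq promoter windows on GRCh38.p14, each from 250 bases before to 50 bases after the annotated start, were found for 63 of the 72 genes. The stretches below, 120 bases each and written 5′ to 3′ on the strand of the gene, show such letters in genes described later. The first pair, from CYCS at chr7:25125370-25125489 (minus strand) and NDUFS6 at chr5:1801287-1801406 (plus strand), has in capitals 8 letters of the NRF1 motif. The other stretches, from NDUFAF4 at chr6:96897979-96898098 (minus), NDUFS1 at chr2:206159542-206159661 (minus) and COX6B1 at chr19:35648203-35648322 (plus), have in capitals the ETS letters.
CYCS: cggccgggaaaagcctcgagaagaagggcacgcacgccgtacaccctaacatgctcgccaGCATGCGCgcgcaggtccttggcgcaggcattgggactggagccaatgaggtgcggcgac
NDUFS6: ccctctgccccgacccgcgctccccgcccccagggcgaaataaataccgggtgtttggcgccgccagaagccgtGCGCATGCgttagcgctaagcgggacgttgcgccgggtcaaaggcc
NDUFAF4: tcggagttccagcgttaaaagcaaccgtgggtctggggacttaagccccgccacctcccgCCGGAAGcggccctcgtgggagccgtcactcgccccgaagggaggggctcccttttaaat
NDUFS1: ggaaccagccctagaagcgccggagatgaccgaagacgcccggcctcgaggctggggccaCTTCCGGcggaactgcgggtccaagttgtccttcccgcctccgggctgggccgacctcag
COX6B1: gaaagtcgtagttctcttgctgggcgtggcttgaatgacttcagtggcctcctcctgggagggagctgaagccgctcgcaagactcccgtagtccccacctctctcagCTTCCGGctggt

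The motifs were searched as letters on both strands. CCGGAAG, the ETS letters, stood in 15 of 63 members (23.8%) and in 12.2% of the windows of all 27305 genes. The full NRF1 motif, GC followed by GCATGCGC, stood in 4 members (6.35%) and in 1.52% of all windows. Those last 8 letters alone, which were chosen after the windows had been seen and overlap the full motif, stood in 12 members (19.0%) and in 3.68% of all windows. The E-box CACGTG was found in 7 members (11.1%, against 8.77%) and the CRE TGACGTCA in 2 (3.17%, against 2.25%). Of the 16 members with a window that were lower with AS605240, 3 held the ETS letters and 5 the 8 NRF1 letters. Of the other 47 members 12 and 7 did. The full NRF1 motif stood in 1 of the 16 and 3 of the 47, the E-box in 1 and 6, and the CRE in 1 and 1. These are matches of letters, and the base composition of the windows was not taken into account.

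AS605240 lowered a part of this set, and no member rose by the same test. At an adjusted p under 0.05, 18 of the 72 genes were lower and 0 were higher, by limma paired within cell lines and Benjamini-Hochberg adjustment over all 19775 genes. Over all genes, 7.03% were lower and 11.8% higher by the same rule. At an unadjusted p under 0.05, 28 members were lower and 0 higher. The share of all genes at that threshold was not counted, so no excess is read from these numbers. Most members were bright (65 had a signal over 50 on at least 7 arrays). The 9186 genes as bright as that were also tested alone, and 17.5% were then lower and 24.8% higher. In that fit 22 of the 65 members were lower and 0 higher. In the fit over all 19775 genes, 1248 of the bright genes (13.6%) were lower and 1861 higher, with 17 and 0 of the 65 members. Shares of bright genes given below come from this fit over all genes. The change was below 0 in 55 of 72 members and in 45.5% of all genes (43.9% of the bright ones). It was below 0 in every line for 18 members, against 6.11% of all genes. Among bright genes that held for 1075 of 9186, and for 17 of the 65 bright members.

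**Figure D1:**
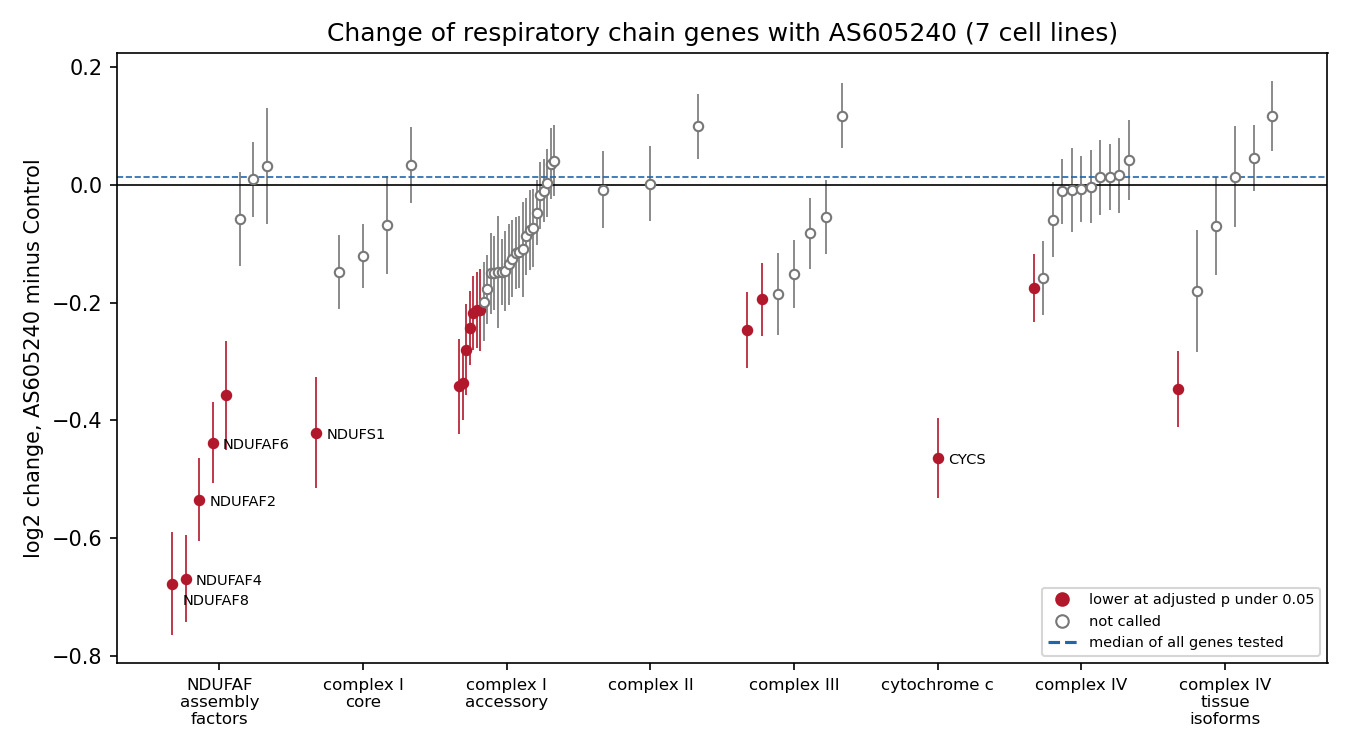
Log2 change (AS605240 minus Control, mean over 7 cell lines) of each protein-coding member, grouped by complex and ordered within a group, with bars of 1 standard error. Filled red points are lower at an adjusted p under 0.05, open points were not called, and the dashed line is the median of all genes tested. The NDUFAF factors reach -0.68 and cytochrome c -0.46, while no complex II or complex IV subunit lies below -0.20.

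The decreases were small in fold terms. Only NDUFAF8 and NDUFAF4 were also past a fold change of 1.5, a limit that 0.506% of all genes passed downwards and 1.07% upwards. For each of the 72 members the range of the Control values overlapped that of the AS605240 values, so the changes were read within lines. Such overlap was not counted over all genes and is not read as a trait of the members.

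The 3 largest mean decreases of the set were in assembly factors of complex I. Of the 8 NDUFAF genes 5 were lower, namely NDUFAF8, NDUFAF4, NDUFAF2, NDUFAF6 and NDUFAF5, beside 7.03% of all genes and 13.6% of the bright ones. NDUFAF8, which works with NDUFAF5, ran from 9.81 to 10.89 in Control (median 10.45) and from 8.996 to 10.75 with AS605240 (median 9.66). It was lower in every line, by 1.01 in P12-ICHIKAWA but by 0.14 in Molt-4, where its level was highest. The mean change was -0.68 ± 0.088 (SE, n = 7 lines), a 1.60-fold decrease (limma adjusted p = 1.63e-04).

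NDUFAF4, which acts with NDUFAF3 on the arm that binds coenzyme Q, ran from 8.88 to 9.80 in Control (median 9.44) and from 7.88 to 9.21 with AS605240 (median 8.80). Here Molt-4 moved most, from 8.88 to 7.88, and HPB-ALL least, by -0.36. The mean change was -0.67 ± 0.074 (limma adjusted p = 5.39e-05), a 1.59-fold decrease. Its partner NDUFAF3 changed by 0.0098 ± 0.064 (adjusted p = 0.947), and by 0.30 in Molt-4.

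NDUFAF2, a relative of the subunit NDUFA12 that sits on a late assembly intermediate, ran from 7.66 to 9.31 in Control (median 8.34) and from 6.94 to 9.01 with AS605240 (median 7.65). It was lower in all 7 lines, by 0.29 in Molt-4 to 0.71 in TALL-1, and the mean change was -0.53 ± 0.071 (limma adjusted p = 1.94e-04). NDUFA12 itself changed by -0.13 (adjusted p = 0.226). NDUFAF6, which is needed early in assembly, was lower in all 7 lines as well, by -0.23 in CCRF-CEM to -0.71 in TALL-1 (mean -0.44 ± 0.069, limma adjusted p = 6.14e-04).

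NDUFAF5, which modifies the core subunit NDUFS7, was lower in 5 of 7 lines. Its change lay between -0.61 and -0.42 in those 5 lines, while HPB-ALL changed by 0.15 and Jurkat by 0.00079, and the mean was -0.36 ± 0.093 (limma adjusted p = 0.0148). With 4 in place of 16 added before log2 it was not called (adjusted p = 0.0553). The remaining factors were not called. NDUFAF1, which takes part in building the membrane arm, changed by -0.058 (adjusted p = 0.707), and NDUFAF7, a methyltransferase, by 0.032 (adjusted p = 0.881). For the 3 factors not called the 95% confidence intervals of the change reached from -0.23 to 0.25.

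**Figure D2:**
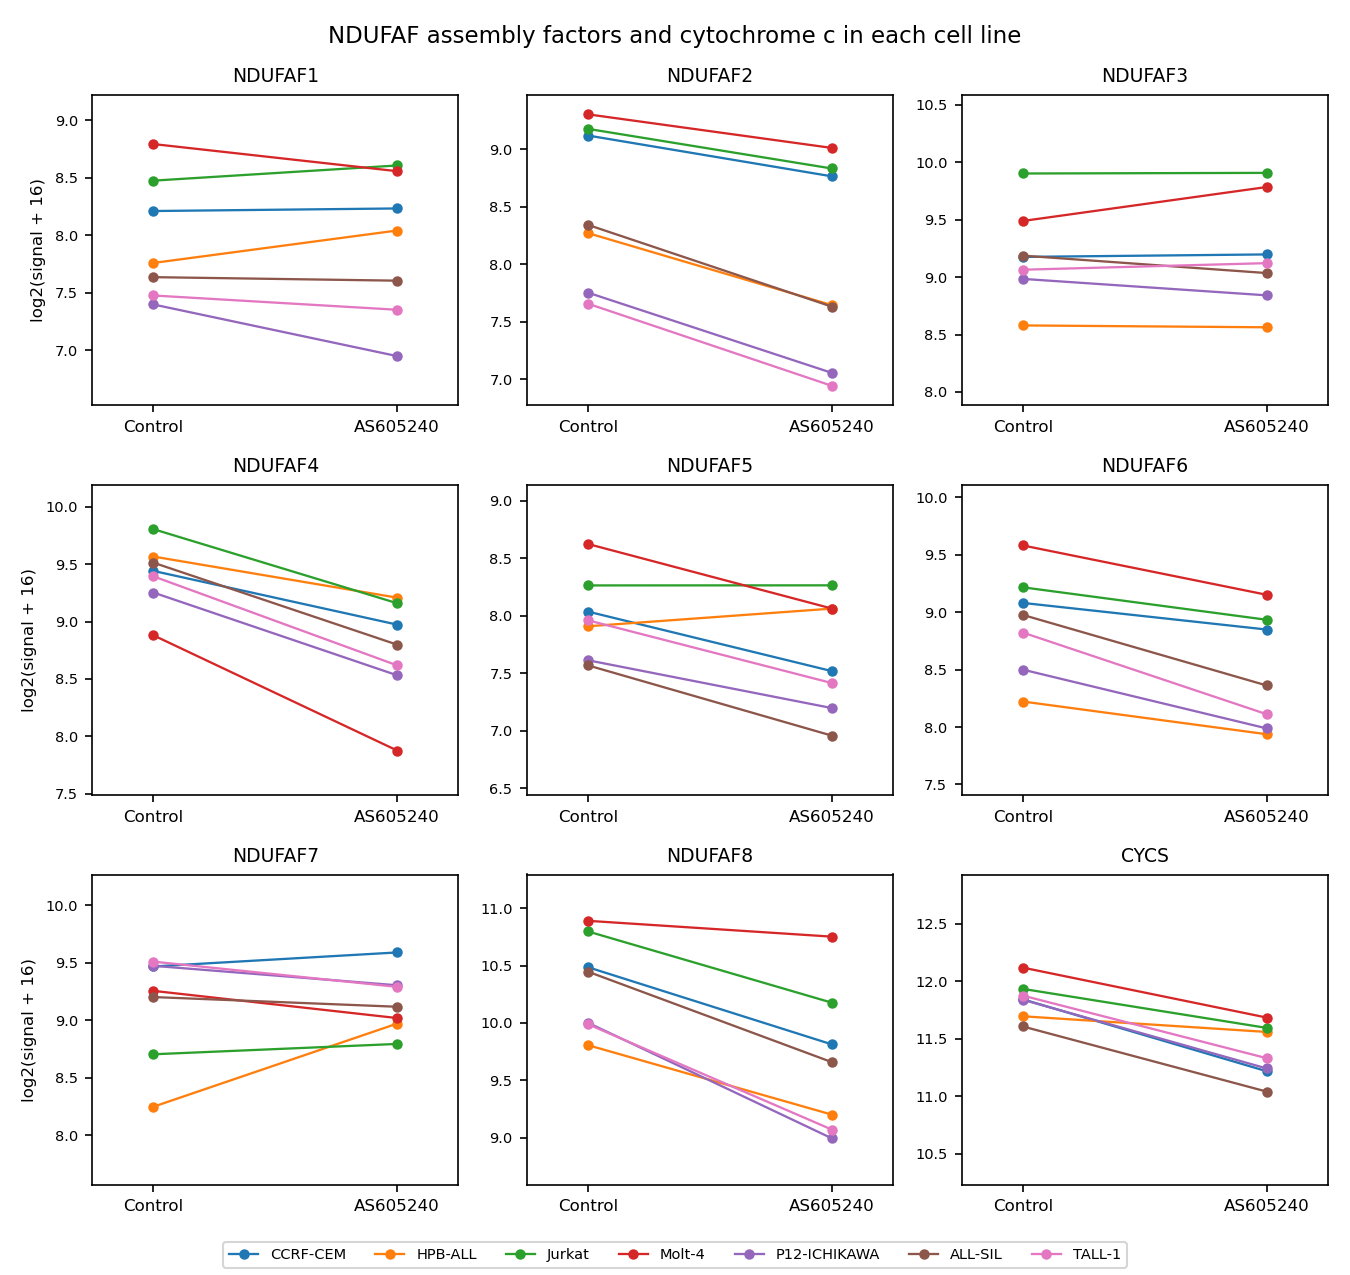
Log2(signal + 16) of the 8 NDUFAF genes and of CYCS in Control and with AS605240, with 1 coloured line per cell line and the same length of axis in every panel. NDUFAF2, NDUFAF4, NDUFAF6, NDUFAF8 and CYCS slope down in all 7 lines. NDUFAF7, read like the others from its brightest probe set, has a change of 0.72 in HPB-ALL.

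The strength of these calls depended on the probe set for some factors. NDUFAF4 has a dimmer probe set (mean signal 171, against 551) with a change of -0.13, and NDUFAF6 has a dimmer one (54.7, against 423) with a change of 0.014. With all probe sets of a gene averaged, NDUFAF6 was no longer called (adjusted p = 0.0568). NDUFAF8 was read from a probe set that the array's naming marks as not unique to 1 transcript, and its unique probe sets are near background (mean signal 26.0 and 7.20, changes 0.12 and -0.033). NDUFAF5 has a nearly equally bright probe set, lower in all 7 lines, with a mean change of -0.45.

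The core subunits of complex I bind the flavin and the iron-sulfur clusters. Of these 1 of 5 was lower, a share near the 13.6% of bright genes. NDUFS1, the largest of them, ran from 8.28 to 9.46 in Control (median 8.96) and from 7.69 to 9.14 with AS605240 (median 8.67). The change was 0.066 in HPB-ALL and below 0 in the other 6 lines, with -0.84 in P12-ICHIKAWA. The mean change was -0.42 ± 0.094 (limma adjusted p = 0.00609), and a dimmer probe set of the gene changed by -0.30. NDUFS3 (-0.15), NDUFV2 (-0.12), NDUFS7 (-0.068) and NDUFV1 (0.034) were not called, and their intervals reached from -0.28 to 0.17.

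The accessory subunits surround this core, and 7 of 28 were lower, against 7.03% of all genes and 13.6% of the bright ones. NDUFS6, a zinc-binding subunit close to the NADH site, ran from 10.61 to 11.48 in Control (median 11.04) and from 9.90 to 11.41 with AS605240 (median 10.83). All lines fell, by 0.06 in Molt-4 and by 0.71 in P12-ICHIKAWA (mean -0.34 ± 0.081, limma adjusted p = 0.00865). NDUFV3, a small subunit of the same module, fell in all lines by 0.19 to 0.62 (mean -0.34 ± 0.062, limma adjusted p = 0.00183).

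NDUFA9, a subunit near the coenzyme Q site, changed by -0.28 ± 0.077 (limma adjusted p = 0.0211), with little movement in Jurkat (-0.05) and most in P12-ICHIKAWA (-0.62). NDUFAB1 is the mitochondrial acyl carrier protein and also serves fatty acid synthesis. It changed by -0.24 ± 0.063 (limma adjusted p = 0.0144) and was lower in every line, as was NDUFA6, a subunit that binds it (-0.21, adjusted p = 0.0335). In the membrane arm NDUFB3 (-0.22, adjusted p = 0.0268) was lower in 7 lines and NDUFB2 (-0.21, adjusted p = 0.0487) in 6, with a change of 0.14 in Molt-4.

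These last calls lay close to the threshold, and some were lost when 1 line was left out, with changes of similar size. NDUFA9 lost its call without P12-ICHIKAWA, ALL-SIL or TALL-1 (changes of -0.27 to -0.22, limma adjusted p = 0.0503 to 0.0714). NDUFB3 lost it without CCRF-CEM, P12-ICHIKAWA or TALL-1 (-0.20 to -0.19, adjusted p = 0.0732 to 0.0861). NDUFA6 lost it without any one of these 4 lines (-0.21 to -0.19, adjusted p = 0.0661 to 0.0979), and NDUFB2 in 6 of the 7 fits (-0.24 to -0.18, adjusted p = 0.0536 to 0.131).

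None of the other 21 accessory subunits was called, and their intervals reached from -0.35 to 0.17. NDUFA13 (-0.20, adjusted p = 0.0545) and NDUFS4 (-0.18, adjusted p = 0.0507) lay just above the threshold. At the other end NDUFB11 changed by 0.041, NDUFB5 by 0.036 and NDUFB1 by 0.0027. The change was below 0 in all 13 NDUFA subunits and in 8 of 11 NDUFB subunits. NDUFA6 has a dimmer probe set with no such change (-0.0018), and it was not called when that probe set was used in its place or averaged in.

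Succinate dehydrogenase, complex II, showed no call among its 3 measured subunits. SDHA, the flavoprotein, ran from 9.48 to 10.12 in Control and from 9.53 to 10.15 with AS605240. It was higher in 6 of 7 lines, with a mean change of 0.10 ± 0.055 (limma adjusted p = 0.26). The membrane anchors SDHC (-0.0077) and SDHD (0.0020) were close to 0. The 95% intervals of the complex reached from -0.15 to 0.22.

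In complex III 2 of 7 subunits were lower, beside 7.03% of all genes and 13.6% of the bright ones. CYC1, which carries the heme that reduces cytochrome c, ran from 10.31 to 11.23 in Control (median 10.64) and from 9.92 to 11.14 with AS605240 (median 10.29), and it fell in every line, by 0.08 in TALL-1 to 0.47 in ALL-SIL. Its mean change was -0.25 ± 0.065 (limma adjusted p = 0.0161), and it lost the call without ALL-SIL. UQCRC2, a core protein of the matrix side, changed by -0.19 ± 0.062 (limma adjusted p = 0.0428). It was lower in 6 of 7 lines and lost the call when any one of Jurkat, Molt-4, P12-ICHIKAWA, ALL-SIL or TALL-1 was left out.

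UQCRB, a small subunit near the coenzyme Q site, had the highest change of the complex. It was higher in 6 of 7 lines (mean 0.12 ± 0.055, limma adjusted p = 0.171), and its dimmer probe sets with a mean signal over 50 changed by 0.072 and 0.29. With all its probe sets averaged, including a dim one (mean signal 36.5, change 0.72), it was higher at 0.30 (limma adjusted p = 0.00315). UQCR10 changed by -0.15 on its brightest probe set (adjusted p = 0.0911) and by 0.40 on a dimmer one (mean signal 103, against 2433). UQCRQ (-0.19), UQCRC1 (-0.082) and UQCR11 (-0.055) were not called.

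Cytochrome c, which carries electrons from complex III to complex IV and triggers caspases once released, was among the members that changed most. CYCS ran from 11.61 to 12.12 in Control (median 11.84) and from 11.04 to 11.68 with AS605240 (median 11.33). It was lower in all 7 lines, by 0.63 in CCRF-CEM and by 0.14 in HPB-ALL. The mean change was -0.46 ± 0.068 (limma adjusted p = 3.79e-04), a 1.38-fold decrease, and its dim probe sets changed by -0.44 and -0.41.

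In complex IV 1 of 11 subunits was lower (9.09%, near the 7.03% of all genes and below the 13.6% of the bright ones). COX5A, a nuclear-encoded subunit of the matrix side, was lower in all 7 lines, by 0.06 in Molt-4 to 0.31 in TALL-1 (mean -0.17 ± 0.058, limma adjusted p = 0.0495). It lost that call in each of the 7 fits that left out a line. COX7B was lower in all 7 lines too (-0.16, adjusted p = 0.102). The other 9 changed by between -0.059 (COX5B) and 0.042 (COX7A2), and the intervals of the 10 not called reached from -0.29 to 0.19. COX4I1, a subunit known for regulation of the enzyme by ATP, changed by 0.013. COX6B1, whose promoter stretch is shown above, changed by -0.011 (limma adjusted p = 0.929).

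The tissue isoforms of complex IV were mostly dim. COX6A2, COX7A1, COX6B2 and COX8C, known from muscle or testis, were under a signal of 50 on every array, and none was called. COX4I2, the isoform induced in low oxygen, had a signal of 42.6 to 137 and a change of -0.18 (adjusted p = 0.277). COX7B2 was called (-0.35, limma adjusted p = 0.00187), although its signal ran only from 13.9 to 33.2. Of the noncoding genes NDUFB2-AS1 (-0.13), NDUFV1-DT (-0.050) and NDUFV2-AS1 (0.077), none was called.

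The lines differed in how far these genes moved. Of the 54 subunits, 51 were lower in CCRF-CEM, 51 in ALL-SIL, 48 in P12-ICHIKAWA and 39 in TALL-1. In HPB-ALL 34 were lower, in Jurkat 33 and in Molt-4 20. Between 42.9% and 49.7% of all genes were lower in each line. The share of bright genes lower differed more, with 53.5% in P12-ICHIKAWA, 51.4% in Jurkat, 47.7% in CCRF-CEM and 46.6% in ALL-SIL. It was 46.1% in Molt-4, 41.9% in TALL-1 and 32.2% in HPB-ALL. The median change of the subunits was lowest in P12-ICHIKAWA (-0.25), ALL-SIL (-0.18), CCRF-CEM (-0.14) and TALL-1 (-0.12). It was -0.034 in HPB-ALL, -0.027 in Jurkat and 0.084 in Molt-4. The median change of all bright genes ran from -0.028 in P12-ICHIKAWA to 0.11 in HPB-ALL and was -0.0073 in Jurkat. The 11 subunits called lower became 5 without P12-ICHIKAWA, 5 without ALL-SIL, 5 without TALL-1, 7 without CCRF-CEM, 8 without Jurkat, 10 without HPB-ALL and 13 without Molt-4, and 5 of 8 NDUFAF genes were called in each of these 7 fits. With P12-ICHIKAWA and TALL-1 counted as 1 line the subunits called were again 5 and the NDUFAF genes 5, and with an offset of 4 they were 4 and 4.

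**Figure D3:**
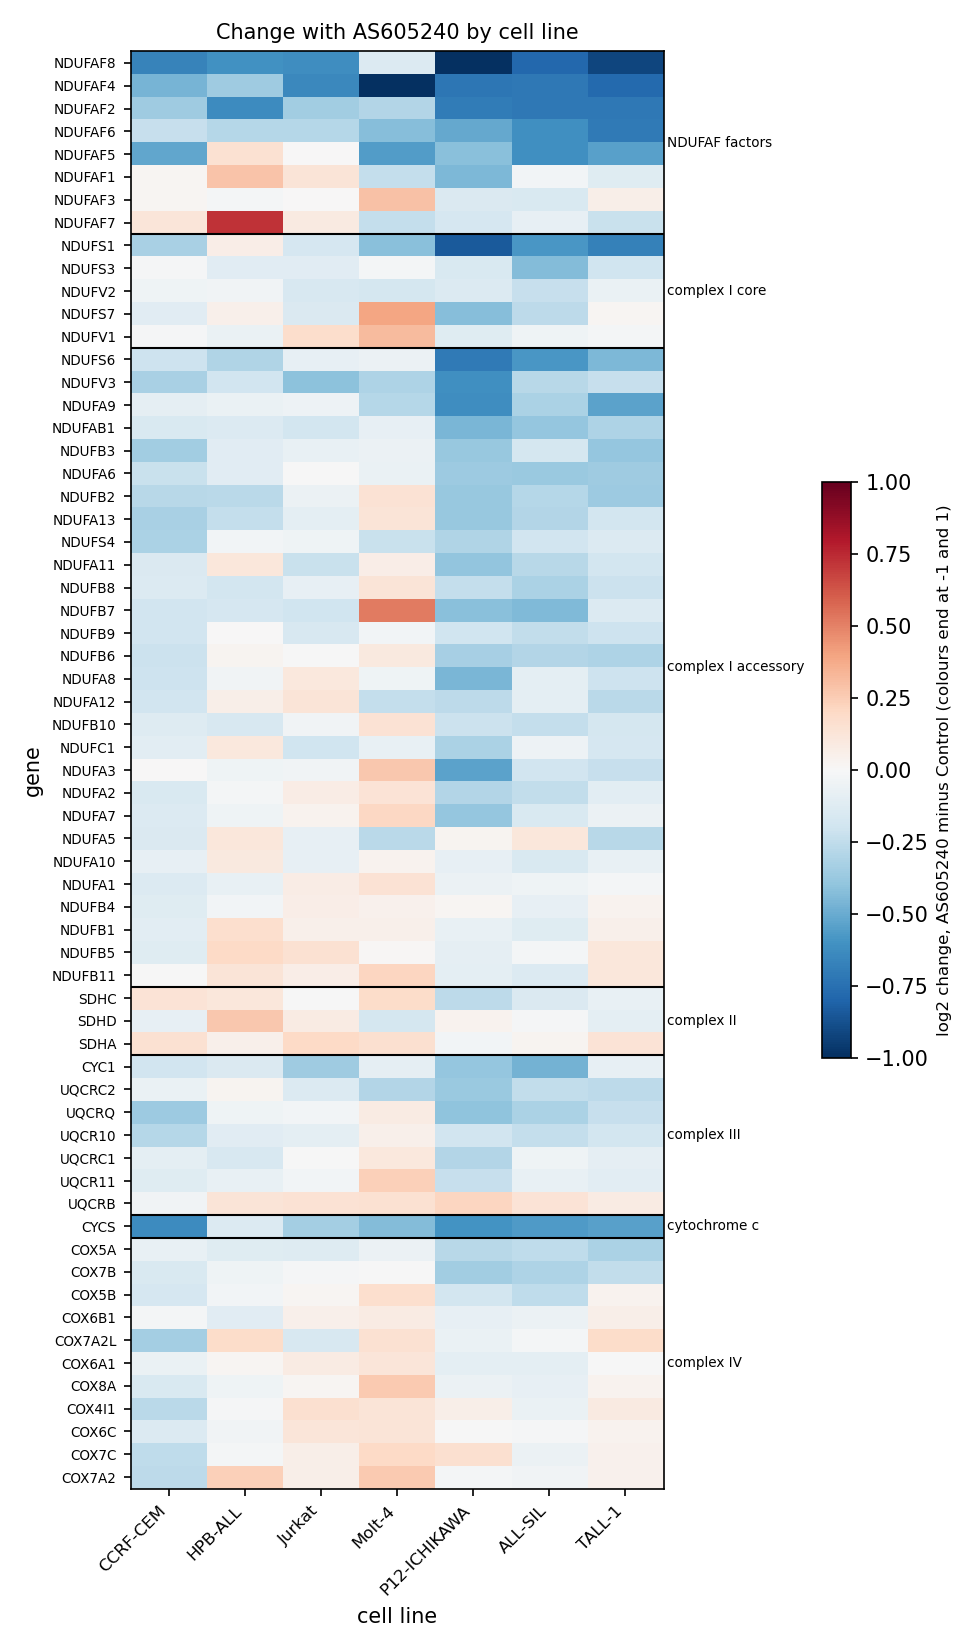
Log2 change (AS605240 minus Control) of the NDUFAF factors, subunits and cytochrome c in each cell line, blue for lower and red for higher. Tissue isoforms and noncoding genes are not drawn. P12-ICHIKAWA, ALL-SIL, CCRF-CEM and TALL-1 are blue over most of complex I. Molt-4 is red at many subunits but blue at 7 of 8 NDUFAF genes.

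Control features of the arrays also differed between lines in their change. Hybridization controls, which are added in equal amounts, changed by -0.49 between the P12-ICHIKAWA arrays and by 0.067 to 0.23 between those of the other lines. Polyadenylated spike-in RNAs changed by 0.54 in Molt-4 and by -0.014 to 0.26 elsewhere. Their part in the differences between lines was not tested. The median change of all genes stayed between 0.00060 and 0.040 in every line. With quantile normalization the subunit median was still lowest in P12-ICHIKAWA (-0.20) and above 0 in Molt-4 (0.095), while that of Jurkat was 0.026 and that of HPB-ALL -0.10.

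Set against each other within a line, the NDUFAF factors had a lower median change than the subunits of complex I. The median change of the 8 factors was -0.37 ± 0.21 (SD over 7 lines) and that of the 33 complex I subunits -0.13 ± 0.12, beside 0.016 ± 0.013 for all genes. Complex III had -0.11 ± 0.13, complex IV -0.014 ± 0.095 and complex II 0.053 ± 0.091. The factors lay below the complex I subunits in 7 of 7 lines, from -0.082 in Jurkat to -0.45 in TALL-1, with a mean difference of -0.23 ± 0.14 (SD). In Molt-4 the factors had a median of -0.26 and the complex I subunits of 0.038.

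This difference depended on the probe sets. Averaging the probe sets of each gene gave -0.082, below 0 in 6 of 7 lines. It was -0.12, below 0 in 5 of 7 lines, with the brightest probe set that the array's naming gives no shared suffix. No test was made of the difference, since these genes were chosen with earlier results of the same arrays known.

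**Figure D4:**
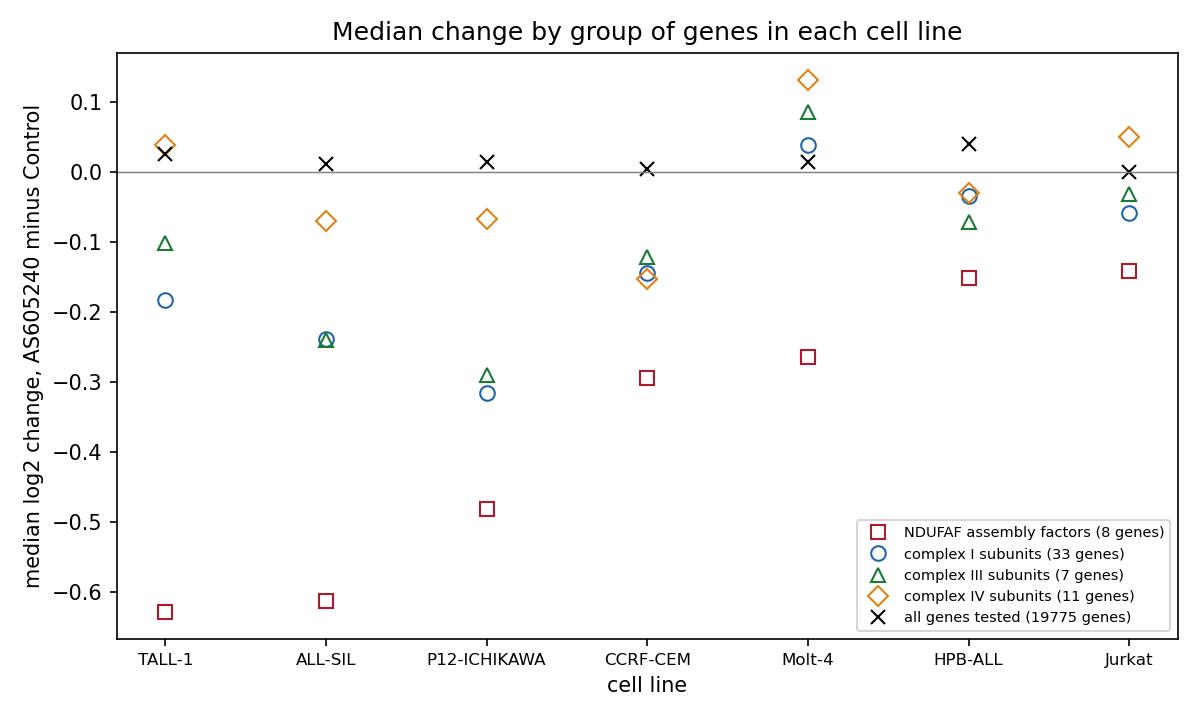
Median log2 change (AS605240 minus Control) in each cell line of the NDUFAF factors, of the subunits of complexes I, III and IV, and of all genes tested; lines are ordered by the NDUFAF median. The NDUFAF square is the lowest symbol in all 7 lines, from -0.63 in TALL-1 to -0.14 in Jurkat, and the complex IV diamond lies between -0.15 and 0.13.

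The Control levels of some members differed widely between lines. NDUFB10, a membrane-arm subunit, ran from 9.05 in HPB-ALL to 10.98 in Jurkat, a span of 1.94. NDUFAF2 ran from 7.66 in TALL-1 to 9.31 in Molt-4, and NDUFV3 from 7.49 in TALL-1 to 9.08 in Molt-4. NDUFS7, a core subunit, was lowest in HPB-ALL (8.43) and highest in Molt-4 (9.89). These are single arrays, so the spread within a line is unknown.

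Of 19 members with several probe sets of a mean signal over 50, 6 had probe sets of opposite direction, namely NDUFAF6, NDUFAF7, SDHC, UQCR10, COX7B and COX7C. The dimmer probe set of COX7B changed by 0.15 and the dimmest of COX7C by -0.018, beside 0.017 for its brightest. Genes read on shared probe sets were looked at separately, with no test. The bright probe set of NDUFC2, a membrane-arm subunit, changed by -0.11 and a dim one by 0.37. NDUFS8, a core subunit with iron-sulfur clusters, has 3 probe sets, which changed by -0.15, -0.18 and -0.025. The probe set of NDUFS5 also names RPL10, a ribosomal protein, and changed by -0.19. That of UQCRH and UQCRHL, the hinge protein of complex III and its copy, changed by -0.064. COXFA4, formerly NDUFA4, changed by -0.046 (limma adjusted p = 0.663).

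Assembly factors beyond the NDUFAF series were also among the genes called. A list of 38 genes held assembly factors of complexes II, III and IV or of several complexes. It also held SLIRP, which acts on mitochondrial mRNAs. In this list 16 were lower and 4 higher, with a median change of -0.14. Of all genes 7.03% were lower and 11.8% higher, and of the bright ones 13.6% were lower and 1861 of 9186 higher. HCCS, which attaches heme to cytochrome c and CYC1, changed by -0.55 (adjusted p = 7.56e-05), SLIRP, which stabilizes mitochondrial mRNAs, by -0.55 (adjusted p = 8.67e-05) and SCO2, which delivers copper to complex IV, by -0.51 (adjusted p = 3.27e-04), all lower in 7 of 7 lines by limma. The 4 that were higher were COX15, UQCC1, COX19 and SDHAF4, named after their values were seen. Of 14 complex I assembly factors with other names, 3 were lower and 2 higher, beside the same shares of all genes and of the bright ones. BOLA3, an iron-sulfur cluster factor, changed by -0.51 (limma adjusted p = 3.45e-04), TMEM126A by -0.29 (adjusted p = 0.00419) and DMAC2 by 0.32 (adjusted p = 0.00300), and the median of this list was -0.045.

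ATP synthase, which uses the gradient that the chain builds, had 1 of 20 subunits lower and 0 higher (median -0.084). Of all genes 7.03% were lower and 11.8% higher, and of the bright ones 13.6% were lower and 1861 of 9186 higher. The subunit called was ATP5MC1, a gene for the ring subunit c, at -0.45 (limma adjusted p = 9.67e-04). Coenzyme Q synthesis had 5 of 13 genes lower and 2 higher, against the same shares. PDSS1, which makes the side chain, changed by -0.63 (limma adjusted p = 2.86e-05) and the methyltransferase COQ3 by -0.43 (adjusted p = 1.72e-04), but COQ8A, an atypical kinase of this pathway, was higher by 0.64 (adjusted p = 6.71e-05). Of 8 other enzymes that donate electrons to coenzyme Q, 2 were lower and 0 higher, against the same shares, and the median change was 0.031. The genes called were DHODH, the pyrimidine synthesis enzyme (-0.43, limma adjusted p = 5.64e-04), and ETFA, of fatty acid oxidation (-0.25, adjusted p = 0.0317).

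Of 21 regulators of respiratory genes 5 were lower and 1 was higher. Of all genes 7.03% were lower and 11.8% higher, and of the bright ones 13.6% were lower and 1861 of 9186 higher. PPRC1 and PPARGC1B, coactivators of NRF1 and related factors, changed by -0.71 (limma adjusted p = 5.36e-05) and -0.66 (adjusted p = 3.27e-04). GABPA, the DNA-binding subunit of GABP, was higher (0.25, limma adjusted p = 0.0161). TFAM, which packs and transcribes mitochondrial DNA, was lower in 7 of 7 lines but not called (-0.16, limma adjusted p = 0.0714), and MYC changed by -0.036 (adjusted p = 0.753).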

How the data were processed

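Total RNA of the cell lines was labelled with biotin and hybridized to HG-U133 Plus 2.0 arrays. For 54675 probe sets and 14 arrays the authors deposited linear intensities, summarized by iterPLIER per the paper's methods. PLIER and Affymetrix Expression Console 1.3.1.187 appear in the submitters' processing notes. For the normalization before that summary, the method was not given in the sources used here. These arrays had a median signal of 15.8 to 18.5, and array number limits the precision. The columns that belonged to no sample numbered 0.

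After 16 was added, log2 was taken. Of the probe sets, 62 were controls, 41091 named a single gene and 1801 several. Symbols of 41037 were updated through the gene ID to RefSeq (GRCh38.p14). A gene took its brightest single-gene probe set by mean log2 value, with no filter on dim genes. One gene of the symbol rule is not reported here.

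AS605240 was compared with Control in R 4.3.3 with limma 3.58.1 (lmFit, eBayes), with a block for each cell line, as in the study's paired analysis. P-values were adjusted by Benjamini-Hochberg over 19775 genes, and a gene was called at an adjusted p under 0.05. The fit was tested on simulated data. The 2 arrays of a line come from the same line, which is the source of the pairing, and deviations from the group means correlated at 0.932 to 0.967 within lines and at -0.375 to 0.913 between lines over 9186 bright genes. The members, gene lists, tests and motifs were chosen with earlier results of these data known, and so were the named genes: members that were called, the extremes of each group, tissue isoforms, members whose direction turned with the probe set, and the 3 genes of smallest p in each list with MYC, PPRC1 and TFAM. The alternatives were offsets of 4 and 64, quantile normalization, median centring, a filter at a signal of 50 on at least 7 arrays, other choices of probe set, each line left out, P12-ICHIKAWA and TALL-1 averaged, no cell line block, and the methods' fold limit of 1.5.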

Additional observations from a re-analysis of the deposited data

Results flagged for a closer look

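The changes of 72 members and 6 group medians over the 7 lines were searched for a single line far from the others, by Dixon's ratio with a critical value of 0.568. Chance marks about 1 in 20 such sets, and 2 of 78 were marked. NDUFAF7 had a change of 0.72 in HPB-ALL on its brightest probe set, while the other lines lay between -0.24 and 0.12. HPB-ALL also had its lowest Control level there, at 8.25. The array's naming marks that probe set as shared, and the SD of its change over lines was 0.34. On the dimmer probe sets of NDUFAF7 (mean signal 106 and 46.7) the SD was 0.12 and 0.20, with mean changes of -0.014 and -0.10. NDUFB7, a membrane-arm subunit, had a change of 0.52 in Molt-4, while the other lines lay between -0.44 and -0.14.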

How the results depend on the processing

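The count of members lower (18) was 10 with an offset of 4, 2 with the methods' fold limit of 1.5, and 0 when the lines were not paired (no replicate block; 4 lower and 0 higher at an unadjusted p under 0.05), a fit that leaves the differences between lines in the error. Elsewhere it was 12 with P12-ICHIKAWA and TALL-1 averaged, 13 and 17 with other probe sets, 14 with quantile normalization, 20 with median centring, 22 with dim genes removed and 23 with an offset of 64, and 12 to 20 with a line left out. The count of members higher (0) was 1 with an offset of 64 and 1 with probe sets averaged (UQCRB), and 2 with probe sets without a shared suffix (UQCRB at 0.29 and UQCR10 at 0.40, which reversed); under that choice NDUFAF8 reversed to 0.12 (adjusted p = 0.356). It stayed 0 to 0 with a line left out. The complex IV median (-0.014) turned to 0.0084 with quantile normalization and 0.0093 without CCRF-CEM, and ran from -0.038 to 0.0093 with a line left out. The other group medians kept their sign under every alternative. Of the 18 calls, 11 held with any line left out and 8 also under every other paired alternative except the fold limit: NDUFAF4, NDUFAF2, NDUFS6, NDUFV3, NDUFAB1, NDUFS1, COX7B2 (which the filter on dim genes removes) and CYCS. The cause of these shifts was not tested. Genes near background, such as COX7B2, have changes compressed by the offset.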
